A study of Mus musculus with 8 samples.

Results

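Zone differences were measured in germinal centre B cells with both Bach2 and Prdm1 floxed for deletion, by comparing light zone (LZ) with dark zone (DZ) cells of 1 genotype. The comparison used 4 of the 8 libraries of the study, 2 LZ and 2 DZ, and the 10610 of 23234 genes that reached 1 FPKM (fragments counted per length of transcript and per depth of library) in at least 2 of the 8 libraries. The study set Prdm1-deficient cells against cells deficient in Bach2 and Prdm1, in each zone. The donor mice were C57BL/6. The compared donor cells carried Bach2(f/f) and Prdm1(f/f) and are called dKO here. The other donor cells carried Bach2(+/+) and Prdm1(f/f), are called sKO here, and are used only for values set beside those of dKO. All 4 groups also carried ERT2cre(KI/+), a Cre recombinase switched on by tamoxifen, and B1-8hi(KI/+), a heavy chain knock-in that binds the hapten NP strongly. Prdm1 was thus floxed in every group. Naive donor B cells were given to CD45.1/45.2 hosts that were wild-type and kept their own lymphocytes. The hosts received tamoxifen (3 mg, for 3 days) and then NP-CGG in alum. NP-binding donor cells that were GL7+ and CD38- were sorted on day 10 from spleens pooled over 5 hosts, at about 30000 cells a library. The sort took CD86 high, CXCR4 low cells as LZ and CD86 low, CXCR4 high cells as DZ. The labels do not say whether the replicates came from separate pools of hosts, so the p-values rest on a spread between libraries that may be technical.

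Germinal centres are the structures in which activated B cells mutate their antigen receptors and are selected. In the dark zone the cells divide and mutate their antibody genes; in the light zone they take up antigen from follicular dendritic cells, present it to follicular helper T cells and receive CD40 signals, and those that receive help turn on MYC and return to the dark zone. Bach2 is a transcriptional repressor that holds back plasma cell and other differentiation programs of B cells, and Prdm1 (Blimp-1) drives plasma cell differentiation.

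The sum of FPKM per library ran from 502214 to 540885, and the correlation of log2 values between replicates of a group from 0.946 to 0.960 (Pearson's r, across genes). Counts were not analysed here, so the depth behind each value is unknown. All 8 pan-B cell markers and all 6 germinal centre B cell markers were above 1 FPKM in all 8 libraries. The genes of the sorted surface proteins followed the sort: Cd86 was at 77.4 and 78.8 FPKM in LZ and 31.2 and 32.2 in DZ. Cxcr4 was at 77.6 and 74.4 FPKM in LZ and 129 and 139 in DZ. Bach2 transcript was at 64.5 and 62.7 FPKM in LZ and 96.2 and 94.5 in DZ, above the sKO levels of 49.8 and 53.4 FPKM in LZ and 76.2 and 74.6 FPKM in DZ. Prdm1 stayed under 1 FPKM in all 8 libraries and was not tested; it was at 0.980 and 0.967 FPKM in LZ and 0.258 and 0.434 in DZ of dKO, above the sKO levels of 0.0577 and 0.0184 FPKM in LZ and 0.0473 and 0.122 FPKM in DZ. Transcript of Bach2 and of Prdm1 was thus higher in dKO than in sKO in each zone, and none of these values checks the deletion. Of the markers of other cells, 0 of 8 NK genes, 2 of 12 T cell genes, 3 of 8 erythroid genes and 2 of 10 stromal genes were tested, and 1 of these 7 passed in dKO (Lat, an adaptor of T cells, higher in LZ); the myeloid genes differed between libraries and are given with their levels further on.

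LZ and DZ cells of dKO differed in a large share of their transcripts. Of the 10610 genes, 3623 (34.1%) differed between the zones, with 1915 (18%) higher in LZ and 1708 (16.1%) lower (limma on log2(FPKM + 1), adjusted p under 0.05). Changes are given as LZ minus DZ on that scale, ± the standard error of the fit, and this scale understates the change of genes with low values. Most differences were small: the median size among the 3623 genes was 0.38, while 127 genes were higher and 72 lower by at least 1. The median over all tested genes was 0.0065. The libraries of the 2 zones did not overlap for any of the 3623 genes, and they did not overlap for 73.2% of all tested genes either. With 1 of the 4 dKO libraries left out, between 2001 (without DZ replicate 1) and 2267 (without LZ replicate 1) genes passed.

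The 15 largest differences in each direction were taken among genes with at least 5 FPKM in the higher zone and no overlap between the LZ and DZ libraries, so the separation of the zones in these genes is part of the rule. Il4i1, a secreted amino acid oxidase, was at 56.1 and 61.1 FPKM in LZ and 3.09 and 3.67 in DZ (change 3.77 ± 0.091, adjusted p = 1.37e-05). Tnfrsf8, which encodes CD30, was at 9.39 and 8.87 FPKM in LZ and 0.603 and 0.521 in DZ (change 2.70 ± 0.088, adjusted p = 3.23e-05). Ccnd2, the D-type cyclin that drives entry into the cycle of re-stimulated cells, was at 6.49 and 6.47 FPKM in LZ and 0.251 and 0.152 in DZ (change 2.64 ± 0.10, adjusted p = 5.26e-05). For each of these the 2 LZ libraries were close together. Tnfrsf8 and Ccnd2 stayed under 1 FPKM in every DZ library, so their place among the tested genes came with a high LZ level. Plscr1, Snn, Fcer2a (CD23, the low affinity IgE receptor), Cd83, Batf, Irf4 and 3 Bcl2a1 genes were also among the 15 largest. Bcl2a1a, Bcl2a1b and Bcl2a1d are near-identical copies whose reads may be split between them, so their separate values are uncertain; each was higher in LZ, by 2.36 to 2.43.

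On the dark zone side, Sepp1, the selenium carrier selenoprotein P, was at 22.4 and 21.3 FPKM in LZ and 95.04 and 96.1 in DZ (change -2.08 ± 0.054, adjusted p = 1.56e-05). Pafah1b3, a catalytic subunit of platelet-activating factor acetylhydrolase, was at 43.8 and 37.5 FPKM in LZ and 149 and 149 in DZ (change -1.85 ± 0.089, adjusted p = 7.40e-05). Gcet2, a germinal centre adaptor protein that restrains B cell movement, was at 37.1 and 36.7 FPKM in LZ and 126 and 124 in DZ (change -1.73 ± 0.076, adjusted p = 7.02e-05). The same direction held for Pde2a, which degrades cyclic nucleotides (-1.80 ± 0.045), Tifa, a TRAF-binding adaptor (-1.82 ± 0.16), the deubiquitinase Otub2 (-1.73 ± 0.14), the serine incorporator Serinc5 (-1.63 ± 0.079), the stem cell receptor Lgr5 (-1.45 ± 0.090) and Itgb3, the beta chain of the vitronectin receptor (-1.44 ± 0.049). Arl5c, B3gnt8, H1fx, Myl4, Lmo4 and Ptgr1 complete the 15, with changes between -1.77 and -1.43.

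**Figure D1:**
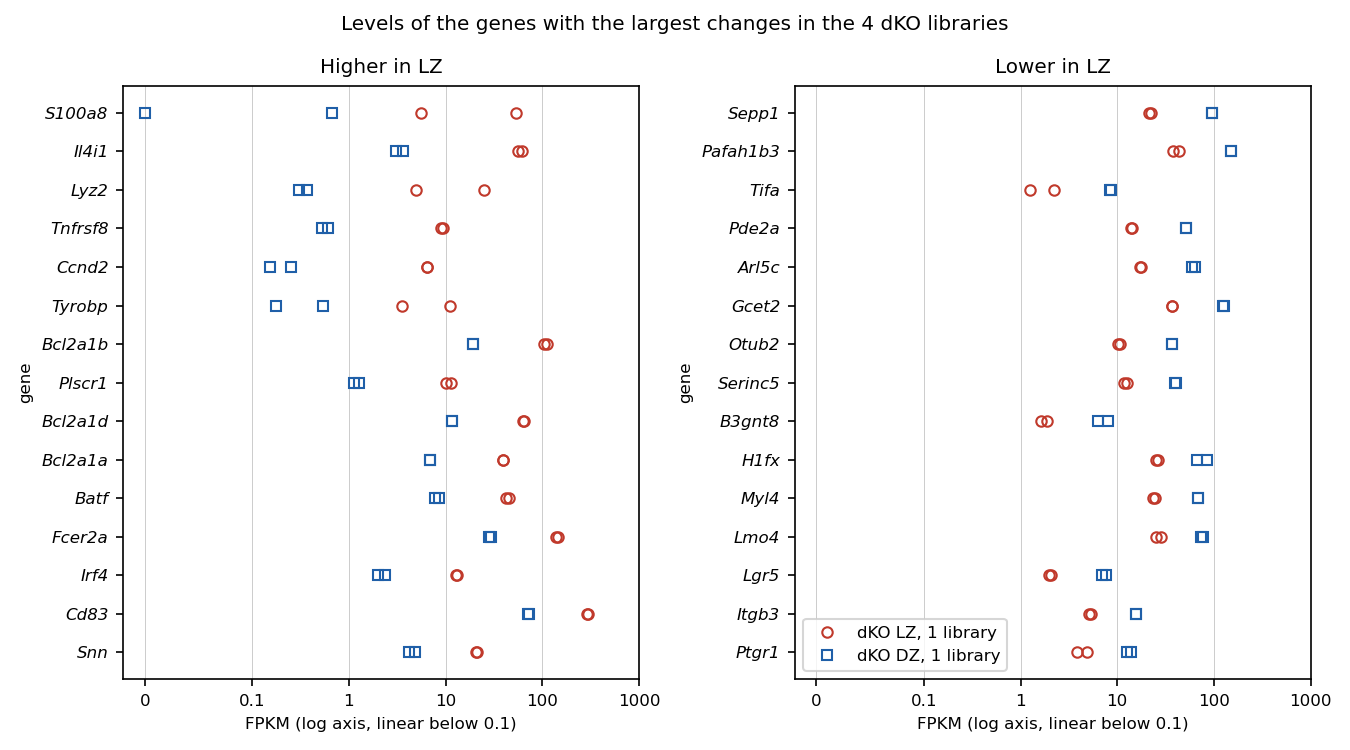
FPKM (log axis, linear below 0.1) of the 15 genes with the largest change in each direction, by dKO library; red circles are LZ libraries and blue squares DZ libraries. The rule took only genes whose zones do not overlap; the LZ libraries of S100a8, Lyz2 and Tyrobp lie far apart.

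The light zone and dark zone lists held known zone genes, chosen with earlier results of these data known, and describe rather than test the sort. In dKO 26 of 29 light zone genes were higher in LZ and 0 lower, with a median change of 1.23. In sKO 24 were higher, with a median of 0.92. Of the 29, 2 reached 1 FPKM only in LZ libraries. Cd83, a surface marker of light zone cells, was at 291 and 299 FPKM in LZ and 72.2 and 71.4 in DZ (change 2.02 ± 0.058, adjusted p = 2.43e-05). Egr1, Traf1 and Cd69 did not pass; Egr1 was at 16.9 and 18.4 FPKM in LZ and 9.32 and 10.6 in DZ, which did not overlap, but its sKO replicates were far apart (36.00 and 24.4 FPKM in LZ) and entered the common spread (change 0.77 ± 0.27, adjusted p = 0.0669; it passed without either sKO DZ library, at 0.0270 for each, and in the fit of the 4 dKO libraries alone, at 0.00495). Of the 25 tested dark zone genes 17 were lower in LZ and 2 higher, with a median of -0.66, against -0.58 in sKO. The 2 were Fbxo5, an inhibitor of the anaphase-promoting complex, and Rgs13. Rgs13, a regulator of chemokine receptor signalling, was at 127 and 131 FPKM in LZ and 90.3 and 93.3 in DZ (change 0.49 ± 0.059, adjusted p = 0.00172).

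Genes of the NF-kB and CD40 response stood higher in LZ. Of 37 tested members 26 were higher and 0 lower (median 0.77), against 18% of all genes. Of the 37, 3 reached 1 FPKM only in LZ libraries, so their place among the tested genes came with a high LZ level. Among the precursors of NF-kB subunits, Nfkb2, whose product is processed on CD40 signalling, was at 44.9 and 45.02 FPKM in LZ and 20.5 and 18.9 in DZ (change 1.15 ± 0.047, adjusted p = 6.61e-05). Rel, the c-Rel subunit, was at 40.7 and 37.6 FPKM in LZ and 29.4 and 28.6 in DZ (change 0.42 ± 0.074, adjusted p = 0.00665). Members of the IkB family, which bind NF-kB subunits, were higher too: Nfkbie was at 33.2 and 33.6 FPKM in LZ and 17.2 and 17.1 in DZ (change 0.92 ± 0.040, adjusted p = 6.61e-05). Nfkbid was at 38.99 and 38.4 FPKM in LZ and 10.4 and 10.9 in DZ (change 1.76 ± 0.091, adjusted p = 9.30e-05). Nfkbia, whose replicates were more spread, was at 90.7 and 86.1 FPKM in LZ and 32.6 and 37.2 in DZ (change 1.32 ± 0.23, adjusted p = 0.00651). Birc3, an inhibitor of apoptosis that ubiquitinates signalling proteins of the pathway, was at 61.5 and 63.6 FPKM in LZ and 26.5 and 26.8 in DZ (change 1.20 ± 0.039, adjusted p = 3.23e-05). The 11 members that did not pass included the subunit Rela and the receptor adaptors Traf1 and Traf2.

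The NF-kB consensus (3 G, a purine, any 2 bases, 2 pyrimidines and 2 C, on either strand) was searched in the RefSeq promoter table (build GRCm38.p6, 250 bases before to 50 after each gene's start). It was present in 10 of the 22 higher members with a promoter in the table (45.5%) and in 3 of 10 members that did not pass (30.0%). The share was 11.8% over the 8404 tested genes with a promoter, and 9.55% over all 27025 genes of the table. The promoters of the 3 members with the smallest p that hold it are shown from the first to the last match with 15 bases on each side, the matches in capitals; a match is a run of letters, not a measured binding site.
Nfkb2, chr19:46304683-46304750, plus strand: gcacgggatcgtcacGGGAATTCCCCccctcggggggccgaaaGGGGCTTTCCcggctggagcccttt
Nfkbie, chr17:45555579-45555618, plus strand: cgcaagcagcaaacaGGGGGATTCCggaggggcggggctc
Nfkbid, chr7:30422165-30422249, plus strand: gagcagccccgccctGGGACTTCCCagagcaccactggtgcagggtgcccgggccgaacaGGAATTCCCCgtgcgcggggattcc
In Nfkb2 the 3 matches, 2 of them on overlapping bases, begin at -39, -38 and -11 relative to the gene's start, while in Nfkbie the match begins at -106 and in Nfkbid the 2 begin at -226 and -181.

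Most listed genes for contact with T cells were also higher in LZ, while over all tested genes 18% were higher and 16.1% lower. In the antigen presentation list 13 of 18 genes were higher and 1 (March1, a ligase that removes MHC class II from the surface) lower, with a median of 0.50. Ifi30, the lysosomal thiol reductase that unfolds antigens, was at 389.6 and 386 FPKM in LZ and 138 and 135 in DZ (change 1.50 ± 0.070, adjusted p = 7.40e-05). The class II chain H2-Aa was at 2092 and 2092 FPKM in LZ and 1193 and 1206 in DZ (change 0.80 ± 0.050, adjusted p = 0.000170). H2-DMb2, which loads peptides, was at 419 and 427 FPKM in LZ and 259 and 269 in DZ (change 0.68 ± 0.036, adjusted p = 0.000106). Both zones thus kept these genes at high levels, and LZ lay above DZ in each library, as in every gene called higher. In the list of T cell help and adhesion genes 19 of 29 were higher and 1 (Slamf6) lower, with a median of 0.35. Cd40 was at 60.6 and 54.8 FPKM in LZ and 23.4 and 23.04 in DZ (change 1.27 ± 0.056, adjusted p = 7.02e-05). Slamf1, a homophilic adhesion receptor of B and T cells, was at 45.98 and 45.03 FPKM in LZ and 14.98 and 15.7 in DZ (change 1.51 ± 0.052, adjusted p = 3.45e-05). Il2rg, the common chain of the receptors for IL-21 and IL-4, changed by 0.97 ± 0.046, and Tnfrsf13c, the BAFF receptor, by 0.78 ± 0.049.

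The count of immediate early genes of antigen receptor signalling that differed changed with the libraries in the fit. With all 8 libraries 8 of 34 tested members were higher, 3 lower (Atf3, Dusp5 and Gadd45b) and 23 did not pass, a share of 32.4% against 34.1% of all genes. Of the 34, 2 reached 1 FPKM only in LZ libraries and 1 only in DZ libraries. In the fit of the 4 dKO libraries alone 16 were higher and 9 lower, a share of 73.5% against 36.9% of all genes. In sKO replicate 1 lay above replicate 2 in both zones for several stimulus genes, picked after their values were seen: Egr1 was at 36.00 and 24.4 FPKM in LZ and 22.99 and 13.3 FPKM in DZ. Nfkbia was at 110.3 and 83.1 FPKM in LZ and 63.8 and 39.2 FPKM in DZ. Klf2, a factor of resting lymphocytes, was at 10.5 and 3.94 FPKM in LZ and 11.3 and 3.49 FPKM in DZ. These shared shifts are not removed by the fit over 8 libraries, and their part in the calls was not tested further. Batf, an AP-1 partner of Irf4, was at 42.6 and 45.3 FPKM in LZ and 8.45 and 7.79 in DZ (change 2.30 ± 0.054, adjusted p = 1.37e-05). The zinc finger factor Egr3 was at 8.70 and 7.21 FPKM in LZ and 1.68 and 1.34 in DZ (change 1.83 ± 0.17, adjusted p = 0.000580). Egr2 was at 3.32 and 3.33 FPKM in LZ and 1.01 and 0.918 in DZ (change 1.14 ± 0.094, adjusted p = 0.000435). Nab2, a repressor that binds EGR proteins, was at 10.9 and 11.3 FPKM in LZ and 4.98 and 5.37 in DZ (change 0.97 ± 0.068, adjusted p = 0.000257). The zones did not overlap for these 4 genes, as for every gene past the threshold and 73.2% of all tested genes. Fos, Fosb, Jun, Junb and Nr4a1 did not pass with all 8 libraries. Without either sKO DZ library 13 members were higher, and without either sKO LZ library 5 were lower. Among the 6 higher members with a promoter in the table, the cyclic AMP response element TGACGTCA and the EGR site GCGTGGGCG (both searched on either strand) were each found in 1, Maff; the shares over all tested genes with a promoter were 3.89% and 1.50%. The shorter element TGACG, which the full element contains, was in 4 of the 6 and in 37.2% of tested genes.

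Growth genes were higher in LZ with few exceptions. In the list of MYC targets and ribosome biogenesis 40 of 41 genes were higher in LZ and 0 lower, with a median of 0.58. Bysl did not pass. Over all tested genes 18% were higher and 16.1% lower. In sKO 36 genes of the list were higher and 1 lower, with a median of 0.44. Gnl3, nucleostemin, was at 64.2 and 64.3 FPKM in LZ and 27.4 and 27.7 in DZ (change 1.19 ± 0.040, adjusted p = 3.35e-05). Npm1, the abundant nucleolar chaperone, was at 1061 and 1044 FPKM in LZ and 632 and 628 in DZ (change 0.74 ± 0.039, adjusted p = 0.000104). Polr1b, the second largest subunit of RNA polymerase I, was at 16.2 and 16.7 FPKM in LZ and 8.21 and 8.58 in DZ (change 0.90 ± 0.050, adjusted p = 0.000122). Mybbp1a, a nucleolar regulator of that polymerase, was at 107 and 108 FPKM in LZ and 63.3 and 62.9 in DZ (change 0.76 ± 0.032, adjusted p = 6.61e-05). In each of these the DZ libraries lay below both LZ libraries, as in every gene called higher. Myc itself was at 55.3 and 52.5 FPKM in LZ and 28.1 and 28.4 in DZ, but its sKO replicates were far apart (41.6 and 32.6 FPKM in LZ and 27.4 and 14.4 FPKM in DZ). The fit over all 8 libraries gave Myc an SE wider than those above (change 0.91 ± 0.27, adjusted p = 0.0403). That call was lost without any 1 of the 4 dKO libraries (adjusted p between 0.119 and 0.141). Cytosolic ribosomal protein genes did not follow: 3 of 32 (9.38%) were higher and 0 lower, with quantile normalization 0 were higher and 11 lower, and with the dKO libraries alone 8 were higher and 3 lower.

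Many genes of amino acid supply and sterol synthesis were higher in LZ as well, and 7 of 19 glycolysis genes. In the mTORC1 and ATF4 list 13 of 26 genes were higher and 1 (Slc38a1) lower, with a median of 0.28; 7 or 8 were higher without any 1 dKO library. Asns, asparagine synthetase, was at 16.9 and 16.6 FPKM in LZ and 5.61 and 5.96 in DZ (change 1.39 ± 0.070, adjusted p = 8.59e-05). Shmt1, which moves one-carbon units from serine, was at 32.5 and 30.97 FPKM in LZ and 15.2 and 16.6 in DZ (change 0.95 ± 0.073, adjusted p = 0.000340). Both chains of the large neutral amino acid transporter were higher: Slc7a5 was at 35.6 and 35.9 FPKM in LZ and 22.9 and 22.3 in DZ (change 0.64 ± 0.059, adjusted p = 0.000598). Slc3a2 was at 43.5 and 41.1 FPKM in LZ and 27.8 and 26.5 in DZ (change 0.62 ± 0.057, adjusted p = 0.000608). Atf4 itself and the ATF4 targets Chac1, Trib3, Psat1 and Sesn2 did not pass. In the cholesterol list 19 of 23 genes were higher and 0 lower, with a median of 0.42. Cyp51, which demethylates lanosterol, was at 48.96 and 47.4 FPKM in LZ and 32.5 and 31.2 in DZ (change 0.58 ± 0.049, adjusted p = 0.000448). Insig1, the sterol-regulated anchor of the SREBP system, was at 43.5 and 43.04 FPKM in LZ and 29.4 and 29.8 in DZ (change 0.53 ± 0.052, adjusted p = 0.000785). Srebf2, Hmgcs1 and Sqle were among the 19, and Mvk, Tm7sf2, Hsd17b7 and Stard4 did not pass. Of these 19 glycolysis genes 0 were lower (median 0.15). The share of 36.8% past the threshold lies near the 34.1% of all genes, and 18% of all genes were higher. With quantile normalization 6 glycolysis genes were higher and 1 lower. Ldha, lactate dehydrogenase A, was at 399 and 395 FPKM in LZ and 259.9 and 269.6 in DZ (change 0.58 ± 0.065, adjusted p = 0.00124). The first enzyme Hk2 was at 5.41 and 5.50 FPKM in LZ and 3.26 and 3.19 in DZ (change 0.61 ± 0.067, adjusted p = 0.00121), while Gapdh, Pgk1 and Eno1 did not pass. Of 42 respiratory chain genes 6 were higher and 5 lower (median 0.023), a share of 26.2% that lies below the 34.1% of all genes; with the dKO libraries alone 9 were higher and 11 lower. Among the 5 were 3 subunits of complex II, Sdha, Sdhb (142 and 141 FPKM in LZ and 185 and 178 in DZ; change -0.35 ± 0.058, adjusted p = 0.00516) and Sdhc. Without any 1 dKO library 1 to 3 respiratory chain genes were higher and 2 or 3 lower.

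**Figure D2:**
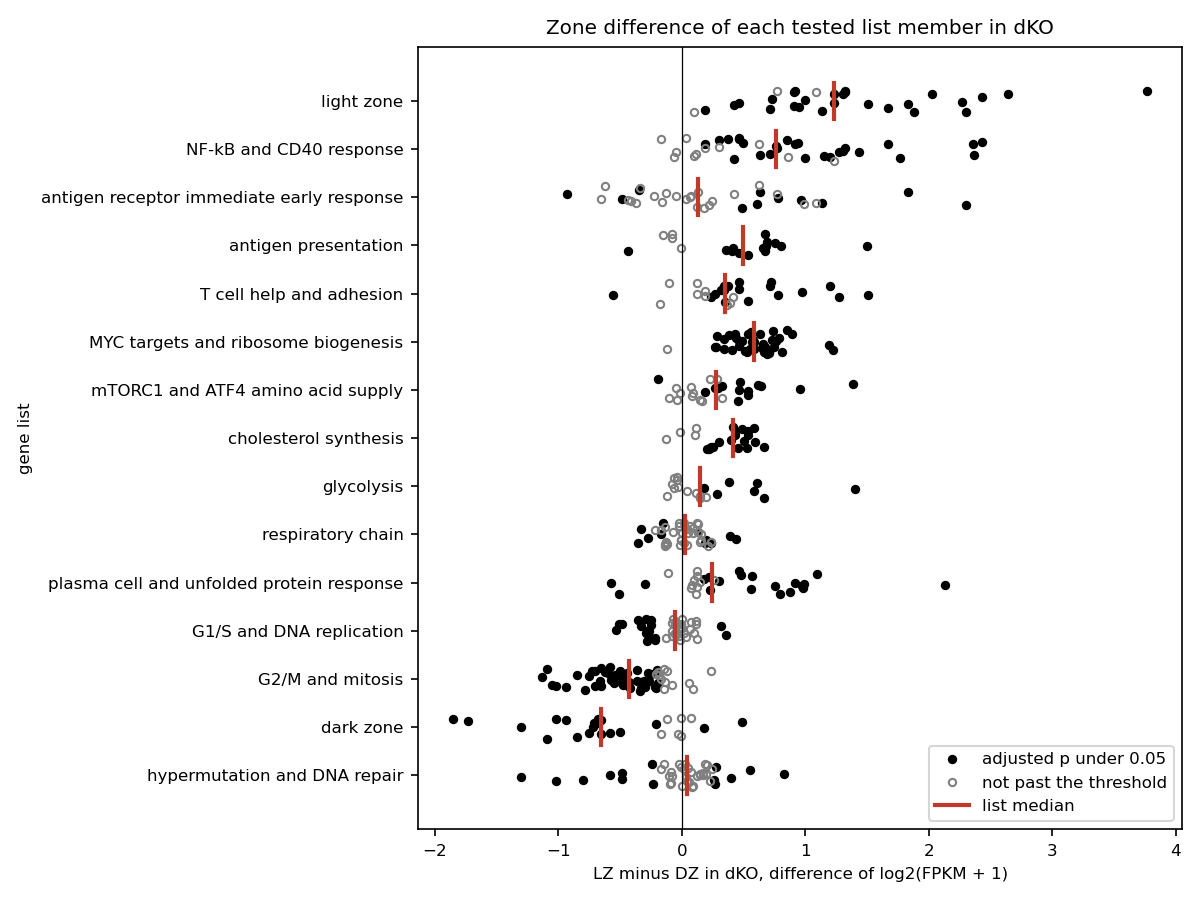
LZ minus DZ in dKO (difference of log2(FPKM + 1)) for each tested member of 15 gene lists; filled points passed the adjusted p of 0.05, open points did not, and the red bar is the median of the list. Ribosome biogenesis genes lie together around 0.58, light zone genes reach 3.77, G2/M genes lie around -0.42, and the immediate early and repair lists spread to both sides of 0.

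Genes of mitosis were higher in DZ. Of 63 tested G2/M and mitosis genes 51 (81.0%) were lower in LZ and 0 higher, with a median of -0.42, against 16.1% lower among all genes; in sKO 58 were lower, with a median of -0.51. Without LZ replicate 2 or without DZ replicate 1 of dKO, 33 were lower. In bulk RNA, fewer cells in mitosis and less of these transcripts per cell cannot be told apart. Cdc25b, the phosphatase that starts mitosis by activating CDK1, was at 70.5 and 70.4 FPKM in LZ and 157 and 154 in DZ (change -1.13 ± 0.093, adjusted p = 0.000421). Hmmr, a spindle protein and hyaluronan receptor, was at 29.1 and 27.7 FPKM in LZ and 44.6 and 46.1 in DZ (change -0.66 ± 0.042, adjusted p = 0.000187). Cenpe, a kinesin of the kinetochore, was at 30.1 and 29.5 FPKM in LZ and 47.2 and 45.7 in DZ (change -0.62 ± 0.049, adjusted p = 0.000384). The cyclin Ccnb1 was at 48.1 and 46.7 FPKM in LZ and 73.6 and 76.8 in DZ (change -0.65 ± 0.071, adjusted p = 0.00111). Mki67, which coats mitotic chromosomes, was at 178 and 184 FPKM in LZ and 224 and 242 in DZ (change -0.36 ± 0.052, adjusted p = 0.00302). No LZ library reached a DZ library in any of the 5. The zones also did not overlap for any other gene past the threshold, nor for 73.2% of all tested genes. Cdk1 was at 40.5 and 39.7 FPKM in LZ and 44.5 and 45.7 in DZ (change -0.16 ± 0.067, adjusted p = 0.106), and Ccna2, Aurkb, Bub1, Ttk, Mad2l1, Kif11, Pttg1, Ndc80, Melk, Sgol1 and Plk4 also did not pass.

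Promoters of these genes were searched for 2 elements of cell cycle genes, the CHR (TTTGAA) and the CCAAT box (CCAAT), on either strand; the letters of the 2 motifs do not contain each other. The CHR letters were in 30 of the 44 lower members with a promoter in the table (68.2%), in 4 of the 10 that did not pass (40.0%), in 14.6% of tested genes and in 20.2% of all genes of the table. The CCAAT letters were in 37 of the 44 (84.1%), in 5 of the 10 and in 44.0% of tested genes. Over all genes lower in LZ the shares were 17.0% and 46.3%, near those of all tested genes. The 3 lower members with the smallest p that hold the CHR are shown, from 15 bases before the first match to 20 bases after the gene's start, with the matches in capitals (ATTGG is the CCAAT box read on the other strand).
Hmmr, chr11:40733418-40733624, minus strand: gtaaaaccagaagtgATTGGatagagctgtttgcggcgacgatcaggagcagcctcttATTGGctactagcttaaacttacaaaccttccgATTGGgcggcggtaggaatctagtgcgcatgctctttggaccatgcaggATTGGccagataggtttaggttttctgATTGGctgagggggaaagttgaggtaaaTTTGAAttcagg
Ccnb2, chr9:70421535-70421736, minus strand: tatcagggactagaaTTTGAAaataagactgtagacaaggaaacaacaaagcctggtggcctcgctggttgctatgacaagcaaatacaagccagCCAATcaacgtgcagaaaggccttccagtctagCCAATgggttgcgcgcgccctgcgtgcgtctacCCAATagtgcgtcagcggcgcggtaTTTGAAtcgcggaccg
Cenpf, chr1:189688067-189688233, minus strand: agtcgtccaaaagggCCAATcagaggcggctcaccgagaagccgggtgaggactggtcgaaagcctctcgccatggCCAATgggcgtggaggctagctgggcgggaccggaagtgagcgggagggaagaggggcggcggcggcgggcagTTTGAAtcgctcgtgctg
In all 3 a CHR lies at 2 to 8 bases from the start, downstream of 5 CCAAT matches in Hmmr, 3 in Ccnb2 and 2 in Cenpf. Cenpf, a kinetochore protein, was at 10.6 and 10.1 FPKM in LZ and 17.4 and 17.5 in DZ (change -0.70 ± 0.076, adjusted p = 0.00112).

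The replication genes differed less. Of 43 G1/S and DNA replication genes 15 were lower in LZ, 2 higher and 26 did not pass, with a median of -0.054. A share of 39.5% passed in either direction, beside 34.1% of all genes, and 16.1% of all genes were lower. In sKO 32 were lower and 0 higher, with a median of -0.26. Without LZ replicate 1, DZ replicate 1 or DZ replicate 2 of dKO, 7 or 8 were lower. The 6 subunits of the replicative helicase, Mcm2 to Mcm7, were all lower, by 0.22 to 0.33: Mcm5 was at 159 and 158 FPKM in LZ and 194 and 192 in DZ (change -0.28 ± 0.050, adjusted p = 0.00706). The calls of Mcm3, Mcm4 and Mcm7 were lost without any 1 dKO library (adjusted p between 0.0535 and 0.134), and that of Mcm6 without LZ replicate 1 or DZ replicate 1. The factor E2f2 was at 35.4 and 36.1 FPKM in LZ and 51.1 and 49.9 in DZ (change -0.49 ± 0.043, adjusted p = 0.000526). In the opposite direction, the thymidine kinase Tk1 was at 93.1 and 87.5 FPKM in LZ and 71.6 and 69.03 in DZ (change 0.36 ± 0.054, adjusted p = 0.00378). The thymidylate synthase Tyms was at 18.7 and 18.98 FPKM in LZ and 14.4 and 15.5 in DZ (change 0.32 ± 0.050, adjusted p = 0.00451). Of the regulators of G1, Ccnd3, the D-type cyclin of dark zone cells, was at 127 and 119.5 FPKM in LZ and 172 and 176 in DZ (change -0.50 ± 0.088, adjusted p = 0.00690), opposite to Ccnd2. The CDK inhibitor Cdkn2d was at 11.99 and 9.97 FPKM in LZ and 17.4 and 18.5 in DZ (change -0.67 ± 0.10, adjusted p = 0.00325). Cdk4 was at 198 and 203 FPKM in LZ and 173 and 172 in DZ (change 0.22 ± 0.047, adjusted p = 0.0140), a call that was lost without any 1 dKO library (adjusted p between 0.0523 and 0.0822).

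**Figure D3:**
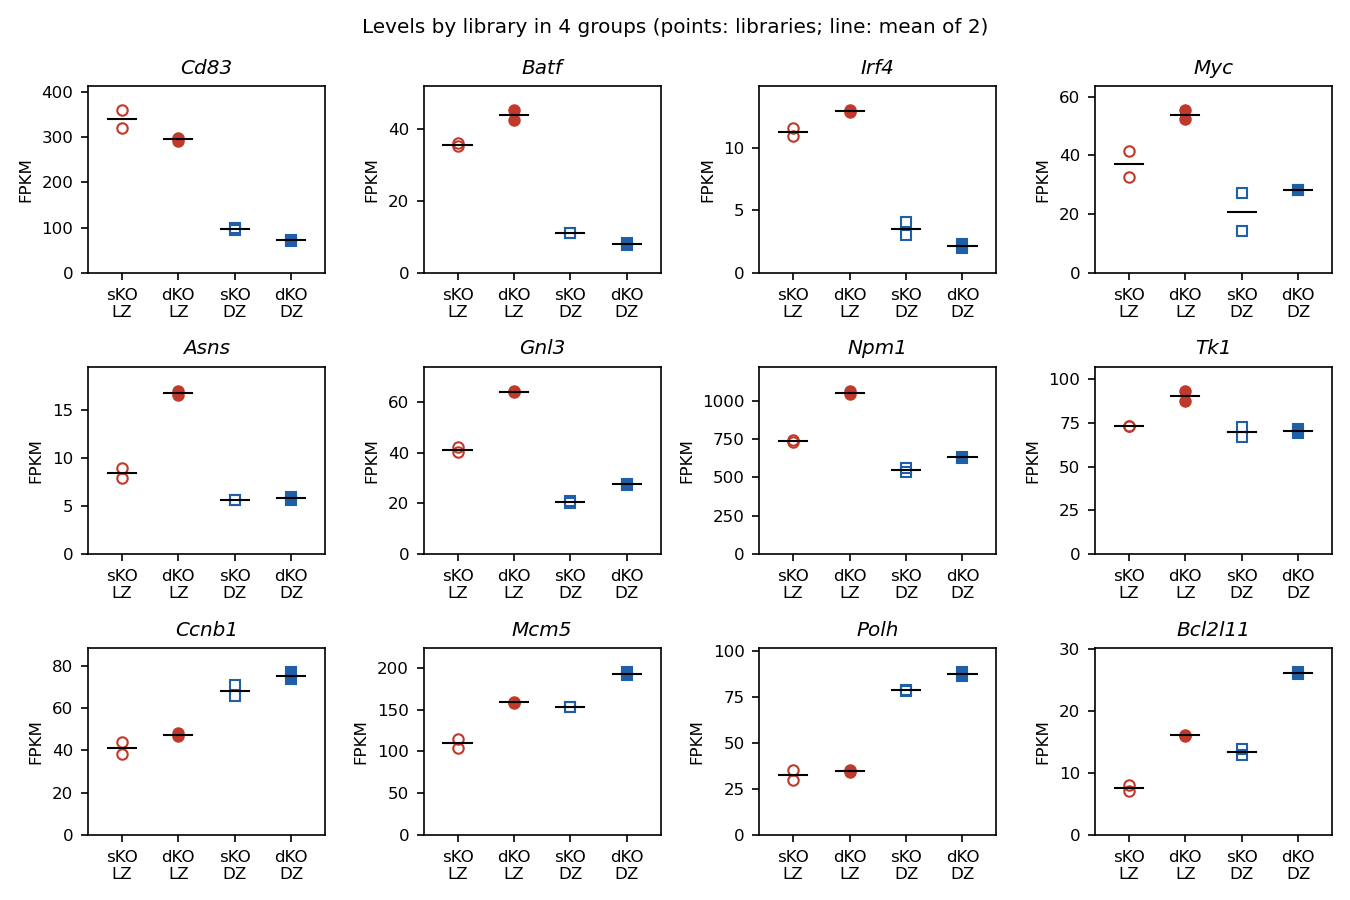
FPKM of 12 genes in all 8 libraries by group (open symbols sKO, filled dKO; circles LZ, squares DZ; line, mean of 2 libraries; each axis starts at 0). Cd83, Batf, Irf4, Asns, Gnl3 and Npm1 lie higher in both dKO LZ libraries than in both dKO DZ libraries, Ccnb1, Mcm5, Polh and Bcl2l11 lie lower, and the sKO libraries of Myc are far apart.

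Of the 43 hypermutation and repair genes 8 were lower in LZ, 6 higher (among them Exo1, Apex1, Xrcc4, Xrcc5 and Atr; 3 without DZ replicate 2) and 29 did not pass, a share of 32.6% that lies near the 34.1% of all genes. Polh, an error-prone DNA polymerase of hypermutation, was at 34.5 and 35.2 FPKM in LZ and 88.6 and 86.5 in DZ (change -1.30 ± 0.075, adjusted p = 0.000134). Xrcc1, a scaffold of base excision repair, was at 70.4 and 72.02 FPKM in LZ and 126 and 123 in DZ (change -0.80 ± 0.055, adjusted p = 0.000246). Lig4, the ligase of end joining, was at 7.31 and 6.78 FPKM in LZ and 15.9 and 14.7 in DZ (change -1.02 ± 0.084, adjusted p = 0.000422). Msh6, Apex2 and H2afx were also among the lower members, while Ung, Pms2 and Rev1 did not pass.

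The regulators of B cell identity fell on both sides, in a list to be read against 18% of all genes higher and 16.1% lower. Of 37 transcription factors 8 were higher and 14 lower in LZ; without LZ replicate 1, LZ replicate 2 or DZ replicate 2, 4 or 5 were higher. Irf4, a high level of which goes with plasma cell fate, was at 12.8 and 12.97 FPKM in LZ and 1.99 and 2.35 in DZ (change 2.13 ± 0.12, adjusted p = 0.000117). Lmo2 was at 64.4 and 60.6 FPKM in LZ and 24.9 and 27.2 in DZ (change 1.23 ± 0.070, adjusted p = 0.000134). Foxo1, the factor of the dark zone program, was at 29.1 and 27.3 FPKM in LZ and 47.4 and 44.3 in DZ (change -0.68 ± 0.078, adjusted p = 0.00137). Foxp1 was at 17.4 and 17.9 FPKM in LZ and 29.8 and 29.8 in DZ (change -0.72 ± 0.053, adjusted p = 0.000292). The octamer coactivator Pou2af1 was at 499 and 491 FPKM in LZ and 868 and 859 in DZ (change -0.80 ± 0.050, adjusted p = 0.000167). Bcl6, the master regulator of germinal centre B cells, was at 114 and 119 FPKM in LZ and 119.8 and 118 in DZ, with overlapping libraries (change -0.032 ± 0.049, adjusted p = 0.648). Bach2 transcript from the targeted gene was lower in LZ (change -0.58 ± 0.044), beside -0.54 ± 0.044 in sKO. Of the receptors that place the cells, the follicle homing receptor Cxcr5 was at 87.7 and 94.5 FPKM in LZ and 58.3 and 60.9 in DZ (change 0.60 ± 0.086, adjusted p = 0.00300). S1pr3 was at 25.7 and 27.3 FPKM in LZ and 11.5 and 11.9 in DZ (change 1.11 ± 0.10, adjusted p = 0.000672). S1pr4 was at 5.46 and 5.03 FPKM in LZ and 10.1 and 10.3 in DZ (change -0.85 ± 0.10, adjusted p = 0.00127). S1pr2, which confines cells to the germinal centre, was at 139.7 and 143 FPKM in LZ and 162 and 164 in DZ (change -0.20 ± 0.048, adjusted p = 0.0193), a call that was lost without any 1 dKO library (adjusted p between 0.0713 and 0.0989).

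Chaperone genes of the secretory pathway were among those higher in LZ. Of 30 plasma cell and unfolded protein response genes 17 were higher, 3 (Igj, Slamf7 and Edem3) lower and 10 did not pass, with a median of 0.25. Over all tested genes 18% were higher and 16.1% lower. In sKO 17 of the list were higher as well (median 0.23). Hsp90b1, the endoplasmic reticulum form of HSP90, was at 185 and 189.6 FPKM in LZ and 87.5 and 86.8 in DZ (change 1.10 ± 0.033, adjusted p = 2.75e-05). The lectin chaperone Calr was at 354 and 360.1 FPKM in LZ and 214 and 209 in DZ (change 0.76 ± 0.034, adjusted p = 7.02e-05). The disulfide isomerase Pdia4 was at 27.3 and 26.8 FPKM in LZ and 12.8 and 13.4 in DZ (change 0.99 ± 0.047, adjusted p = 7.40e-05). Igj, the J chain of secreted antibody, was at 275 and 276 FPKM in LZ and 388 and 398 in DZ (change -0.51 ± 0.038, adjusted p = 0.000306), and Xbp1 did not pass. The chaperones and the J chain thus lay on opposite sides.

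Of 23 tested memory genes 9 were higher in LZ and 3 lower, beside 18% of all genes higher and 16.1% lower. Among the 23, 4 (Ccr6 and Hhex included) reached 1 FPKM only in LZ libraries. The place of these 4 among the tested genes thus came with a high LZ level. Ccr6, a receptor of memory precursors, was at 0.848 and 0.696 FPKM in LZ and 0 and 0.0639 in DZ (change 0.78 ± 0.11, adjusted p = 0.00295). Hhex, a transcription factor of memory B cell formation, was at 1.46 and 1.78 FPKM in LZ and 0.127 and 0.207 in DZ (change 1.17 ± 0.12, adjusted p = 0.000808). Gpr183, the oxysterol receptor EBI2, was at 2.30 and 2.27 FPKM in LZ and 0.372 and 0.261 in DZ (change 1.32 ± 0.12, adjusted p = 0.000680). Ccr6 and both DZ libraries of Hhex and Gpr183 lay under 1 FPKM in dKO. Nt5e, which encodes CD73, was lower in LZ, at 6.30 and 6.62 FPKM in LZ and 15.8 and 15.9 in DZ (change -1.18 ± 0.053, adjusted p = 7.02e-05). With the dKO libraries alone 8 memory genes were higher and 5 lower, so both counts depend on the fit. Bcl2 stayed under 1 FPKM in all libraries (0.677 and 0.545 FPKM in LZ and 0.163 and 0.160 in DZ in dKO) and was not tested.

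Among 14 apoptosis regulators 7 were higher and 4 lower (2 lower without LZ replicate 2 or DZ replicate 1). Of the survival proteins, Bcl2l1 (BCL-XL) was at 8.89 and 11.2 FPKM in LZ and 5.67 and 5.25 in DZ (change 0.77 ± 0.11, adjusted p = 0.00347), whereas Mcl1 was at 151 and 149 FPKM in LZ and 178 and 171 in DZ (change -0.22 ± 0.040, adjusted p = 0.00770; 0.0535 without LZ replicate 2 and 0.0623 without DZ replicate 1). Of the death proteins, Bcl2l11 (BIM) was at 16.1 and 15.96 FPKM in LZ and 26.2 and 25.9 in DZ (change -0.67 ± 0.064, adjusted p = 0.000698). Bid was at 113 and 111 FPKM in LZ and 80.8 and 76.7 in DZ (change 0.50 ± 0.040, adjusted p = 0.000390). The 7 higher members include Bcl2a1a, Bcl2a1b and Bcl2a1d (2.36 to 2.43), near-identical copies whose reads may be split between them. Transcripts for survival and death proteins thus stood on both sides, in a list to be read against 18% of all genes higher and 16.1% lower. Of 12 tested genes of heme and oxidative stress 2 were higher, 3 lower and 7 did not pass (1 higher without any 1 dKO library). With all libraries 41.7% of this list passed in either direction, beside 34.1% of all genes. The higher ones were Prdx1, a peroxiredoxin, and Tfrc, the transferrin receptor. Tfrc was at 48.4 and 46.4 FPKM in LZ and 32.96 and 32.6 in DZ (change 0.52 ± 0.054, adjusted p = 0.000979). The heme oxygenase Hmox1 was at 3.09 and 3.09 FPKM in LZ and 5.70 and 5.40 in DZ (change -0.68 ± 0.083, adjusted p = 0.00172). Blvrb, which reduces the product of that enzyme, was at 86.1 and 84.5 FPKM in LZ and 192 and 186 in DZ (change -1.14 ± 0.086, adjusted p = 0.000325). Gclc, of glutathione synthesis, was at 16.9 and 18.8 FPKM in LZ and 31.2 and 32.5 in DZ (change -0.80 ± 0.092, adjusted p = 0.00135); Hmox1 was at 0.692 and 0.529 FPKM in LZ and 1.79 and 1.91 FPKM in DZ of sKO. The cytokine gene Il10 was at 7.06 and 5.72 FPKM in LZ and 2.25 and 2.53 in DZ (change 1.12 ± 0.20, adjusted p = 0.00698), beside 1.29 and 0.577 FPKM in LZ and 0.424 and 0.183 FPKM in DZ of sKO.

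Myeloid transcripts moved with the zone. S100a8, a calcium-binding protein of neutrophils, was at 5.51 and 53.1 FPKM in LZ and 0.676 and 0 in DZ (change 3.86 ± 1.12, adjusted p = 0.0397). The lysozyme gene Lyz2 was at 4.91 and 24.8 FPKM in LZ and 0.373 and 0.305 in DZ (change 3.20 ± 0.79, adjusted p = 0.0227). Tyrobp, an adaptor of myeloid and NK receptors, was at 3.58 and 11.2 FPKM in LZ and 0.176 and 0.538 in DZ (change 2.47 ± 0.44, adjusted p = 0.00698). The 2 LZ libraries were thus unlike, with replicate 2 several times replicate 1. Of 16 myeloid markers 9 were tested, and 7 of these were higher in LZ and 0 lower (4 with the dKO libraries alone). Of the 9 genes 5 reached 1 FPKM only in LZ libraries, so the count is a description; without LZ replicate 2, DZ replicate 1 or DZ replicate 2, 3 were higher. The S100a8 call was lost without LZ replicate 2, either DZ library or either sKO DZ library. It was also lost with the replicate block, no filter, a robust prior or the dKO libraries alone (limma, adjusted p between 0.0520 and 0.110). The Lyz2 call was lost without LZ replicate 2 or either DZ library. It was also lost with no filter (limma, adjusted p = 0.0506) and with a robust prior (0.0725). Of the 16 genes 3 and 2 were at 0 in the LZ libraries of dKO, and 3 and 6 in the DZ libraries. The summed FPKM of the 16 genes was 52.6 and 181.6 in dKO LZ, 26.4 and 26.3 in dKO DZ, 42.3 and 91.5 in sKO LZ, and 26.5 and 29.6 in sKO DZ. Of the defining markers Itgam was at 0.116 and 0.725 FPKM in LZ and 0.0142 and 0.0581 in DZ. Csf1r was at 0.165 and 0.442 FPKM in LZ and 0.0347 and 0.0177 in DZ, and C1qa was at 0.0984 and 0 FPKM in LZ and 0 in both DZ libraries. The part of such cells in the other zone differences was not tested.

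**Figure D4:**
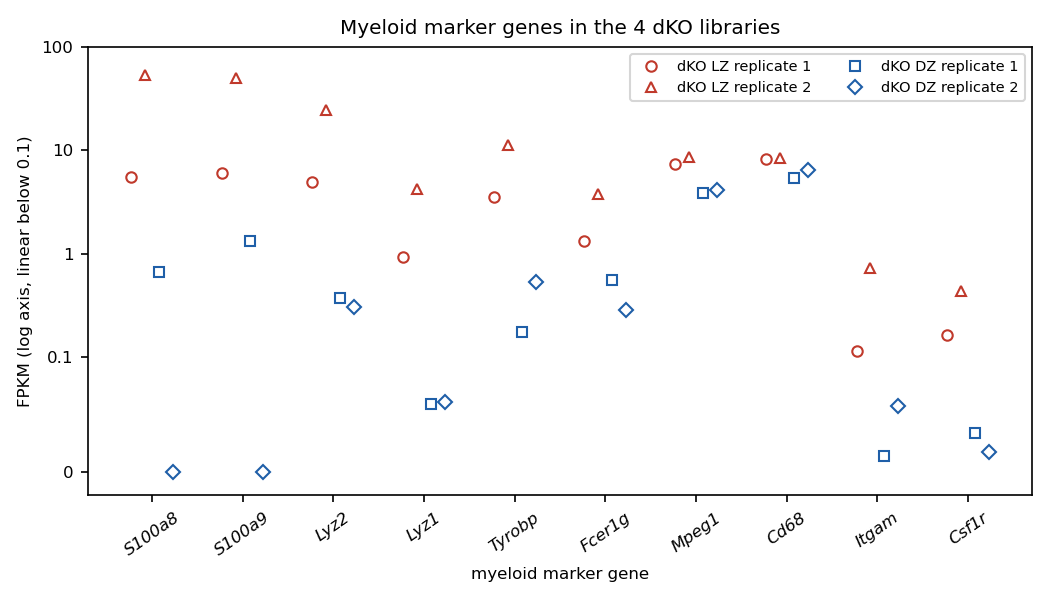
FPKM (log axis, linear below 0.1) of 10 myeloid marker genes in the 4 dKO libraries. LZ replicate 2 (red triangles) lies above LZ replicate 1 (red circles) for every gene, from 8.51 against 8.27 for Cd68 to 53.1 against 5.51 for S100a8, and both DZ libraries (blue) lie lowest.

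The zone difference of dKO was set beside that of sKO, which shares no library with it. In sKO 3312 genes (31.2%) differed between the zones. Of the genes called, 2400 were called in both genotypes, 66.2% of those of dKO and 72.5% of those of sKO, and 2392 of the 2400 had the same direction. Across genes the 2 sets of changes had a Spearman's rho of 0.767; Pearson's r was 0.444 over all 10610 genes and 0.831 without the 162 small RNA genes. All these values come from 4 libraries of each genotype, and genes are not independent replicates.

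The test of the difference itself, the zone by genotype interaction, called 3 genes (0.0283%), and 1232 genes (11.6%) had an unadjusted p under 0.05. All 3 were microRNA genes listed at exactly 0 in whole groups, and 2 of them reached 1 FPKM in the sKO DZ libraries alone, so these calls are not read as a difference between genotypes. Outside small RNA genes the smallest adjusted p was 0.142, shared by Batf, Asns, Mrpl13 and Cd36. Batf changed by 2.30 ± 0.054 in dKO and 1.60 ± 0.054 in sKO, where it was at 36.2 and 35.3 FPKM in LZ and 11.2 and 11.1 FPKM in DZ. Asns changed by 1.39 ± 0.070 in dKO and 0.52 ± 0.070 in sKO, where it was at 7.88 and 8.96 FPKM in LZ and 5.56 and 5.56 FPKM in DZ. Mrpl13, a mitochondrial ribosomal protein, was at 75.5 and 74.7 FPKM in LZ and 51.6 and 53.1 in DZ in dKO (0.51 ± 0.036), beside a difference of 0.071 ± 0.036 in sKO. Cd36, a scavenger receptor, changed by 0.59 ± 0.047 in dKO and 1.17 ± 0.047 in sKO. The zone differences of these 4 genes were thus not shown to differ between genotypes after adjustment. Ccr6 and Ccl22 reached 1 FPKM only in the 2 sKO LZ libraries, so a high sKO value came with their entry, and their values are descriptions. Ccr6 was at 3.11 and 3.40 FPKM in sKO LZ and 0.848 and 0.696 FPKM in dKO LZ. Ccl22, a chemokine for T cells, was at 2.78 and 2.77 FPKM in sKO LZ and 0.269 and 0.504 FPKM in dKO LZ. The dKO call of Ccl22 was lost without LZ replicate 2, DZ replicate 1 or DZ replicate 2 (adjusted p between 0.106 and 0.121).

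**Figure D5:**
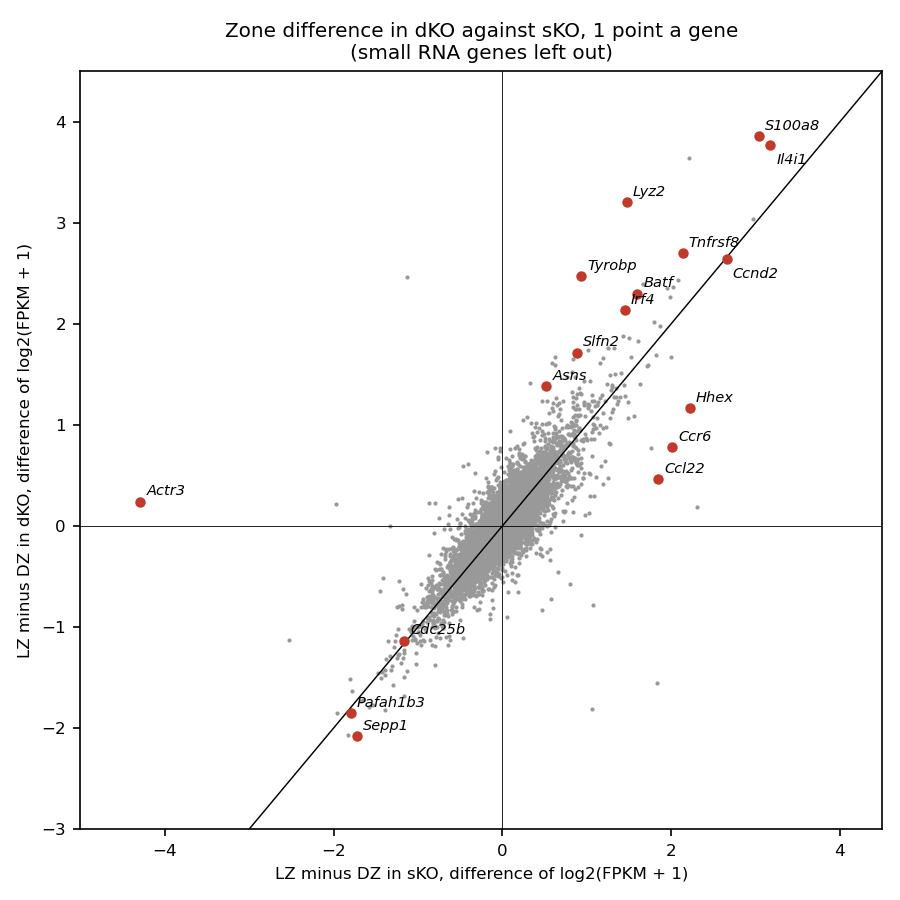
LZ minus DZ in dKO (vertical) against LZ minus DZ in sKO (horizontal), both as differences of log2(FPKM + 1), 1 point for each of 10448 genes, small RNA genes left out; the line marks equal changes and red points are named genes. Batf, Asns and Lyz2 lie above the line, Ccr6, Ccl22 and Hhex below it, and Actr3, which 1 sKO LZ library lists at 0, lies far left.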

How the data were processed

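RNA of sorted donor B cells was sequenced from NEBNext Ultra libraries, per the labels' protocols. The deposited table holds FPKM values that the authors made for 23234 gene symbols and 8 libraries, per the file headers. The submitters' processing notes list TopHat2 2.0.8, Cufflinks 2.1.1 and mm9 without saying how each was used. Strand was not stated, so reads of overlapping genes may be shared. An exact 0 in such a table can be a failed estimate; 108 tested genes were at 0 in 1 dKO library and above 5 FPKM in its replicate.

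The 10610 genes (162 of them small RNA genes) that reached 1 FPKM in 2 or more libraries were tested on log2(FPKM + 1). Among them 159 reached 1 FPKM only in LZ libraries and 121 only in DZ libraries, so their entry came with a high level there. A group means model over 4 groups of 2 libraries was fitted with limma 3.58.1 (R 4.3.3), sharing 1 estimate of the spread with an intensity trend (4 residual and 2.46 prior degrees of freedom). Tests were 2-sided, with Benjamini-Hochberg adjustment over all tested genes of a contrast and a threshold of 0.05; higher and lower are used for genes past it. The code was tested on simulated data. The members and the 34 gene lists were chosen with earlier results of these data known, so no list is independent evidence of its direction.

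Genes were named by a rule: the 15 largest changes in each direction with at least 5 FPKM in the higher zone and no overlap between libraries (small RNA genes, unnamed models and antigen receptor segments left out), the 4 members of each list with the smallest p, and Bach2, Prdm1, Cd86, Cxcr4, Cd83, Bcl6, Irf4, Myc, Foxo1, Ccnb1, Mki67, S1pr2, Ccr6, Nfkbia, Batf, Bcl2l11 and Slc7a5. Some genes that the rule names are not reported here. Other genes, among them the exceptions in each list, Mcm2 to Mcm7, Mcl1, Il10, Hmox1, Ccl22 and the microRNA genes, were named after their values were seen. Promoter sequences come from RefSeq (GRCm38.p6) and were matched by symbol. The alternatives were a replicate block, pseudocounts of 0.1 and 0.5, no filter and a filter of 5 FPKM, upper quartile scaling, quantile normalization, no trend, a robust prior, only dKO libraries, no small RNA genes, and leaving out each library.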

Additional observations from a re-analysis of the deposited data

Results flagged for a closer look

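The interaction test called 3 microRNA genes, and the calls rest on exact zeros. Mir3112 was at 119 and 124 FPKM in dKO LZ, listed at 0 in both dKO DZ and both sKO LZ libraries, and at 161 and 92.2 FPKM in sKO DZ (adjusted p = 1.15e-05, limma). Mir194-1 was listed at 0 in 6 libraries and at 261 and 299.7 FPKM in sKO DZ (adjusted p = 1.75e-06). Mir1943 was listed at 0 in the same 6 libraries and at 152 and 175 FPKM in sKO DZ (adjusted p = 1.98e-06). Mir194-1 and Mir1943 reached 1 FPKM in the 2 sKO DZ libraries alone, so their entry into the test came with a high level there and the calls show no difference between genotypes on their own. Whether these zeros are failed estimates was not tested.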

How the results depend on the processing

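Groups of 2 libraries and an unknown depth limit the precision. Over fits that left out 1 library, where a lone library is assumed to vary like the other groups, the dKO zone count ran from 2001 to 3856 (higher 1128 to 2019, lower 842 to 1838), with all 4 counts of 2267 or less coming from the loss of a dKO library. The sKO zone count ran from 2001 to 3053, and the interaction count from 3 to 6. The interaction count was 5 with the replicate block, 5 with no filter, 5 with a robust prior and 0 without small RNA genes. Of 161 named genes past the threshold, 135 kept their call in each alternative fitted, 26 lost it in at least 1, and 0 changed direction. Under quantile normalization 3 of the 3623 genes had the other sign. Over all genes the deviations of same-numbered libraries had a correlation of -0.098 in dKO and 0.061 in sKO, so the numbers are not taken to pair the samples, although Egr1, Nfkbia, Myc and Klf2 were higher in replicate 1 of both sKO zones; with the replicate block 3010 genes passed in dKO and 2557 in sKO, 2864 of the 3623 dKO genes were called with it in the same direction, and the immediate early list had 15 higher and 9 lower, with Egr1 past the threshold (adjusted p = 0.00525). The cause of these shifts was not tested.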

Other observations

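Some gene families were defined by symbol after the values were seen, and their counts are descriptions to be read against 18% of all tested genes higher and 16.1% lower. All 8 subunits of the CCT chaperonin, which folds actin and tubulin, were tested, and 6 were higher in LZ of dKO and 0 lower (median 0.26; 1 higher in sKO). Of 76 mitochondrial ribosomal protein genes 21 were higher and 3 lower (median 0.16), with 4 higher and 6 lower in sKO; without 1 library the count higher was as low as 10. Of 20 cytosolic aminoacyl-tRNA synthetases 9 were higher and 2 lower, and of 38 proteasome subunits 8 were higher and 3 lower (as few as 4 higher and 0 lower without 1 library). Translation initiation factors were split, with 20 of 53 higher and 10 lower (as few as 10 higher and 3 lower without 1 library). Of 23 kinesins, the motors of spindle and vesicle transport, 14 were lower and 0 higher (median -0.25), the same numbers as in sKO, and 5 were lower in the least favourable fit without 1 library. Histone cluster genes had 13 of 52 lower and 0 higher (median -0.35), and 0 lower in the least favourable fit without 1 library. Of 11 tubulins 1 was higher and 1 lower, beside 8 lower in sKO.

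Of 36 tested chromatin and DNA methylation genes 5 were higher in LZ and 10 lower, with 3 to 5 lower without any 1 dKO library. With all libraries 41.7% of the chromatin list passed in either direction, beside 34.1% of all genes. Bmi1 and Jarid2 of the Polycomb complexes were higher and Cbx7 and the cohesin subunit Rad21 lower, while Ezh2 did not pass. Of 20 tested interferon-inducible genes 3 were higher and 3 lower, 30.0% against 34.1% of all genes (5 higher with the dKO libraries alone; 1 lower without LZ replicate 1, LZ replicate 2 or DZ replicate 1). Of 21 tested chemokine and lipid receptor genes 9 were higher and 4 lower, beside 18% of all genes higher and 16.1% lower. Of 10 tested genes of naive and marginal zone B cells 6 were higher, the complement receptor Cr2 and Fcer2a among them, and 0 lower. With the dKO libraries alone 6 of these genes were higher and 1 lower. The summed FPKM of the 13 such genes in the table was 332 and 345 in LZ and 174 and 173 in DZ.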
